A study of Mus musculus with 24 samples.

Results

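Skeletal muscle of mice with a pancreatic tumour was compared between animals given the chemotherapy drugs gemcitabine and nab-paclitaxel (KPC+GnP) and animals given vehicle (KPC). The libraries were chosen by their labels as those of the treated and of the vehicle group in the muscle count table. They are 4 against 4, 8 of the 24 libraries of the series. All genes of that table are members: 14537 were listed, and the 12760 with enough counts were tested. The mice were male C57BL/6J. Both groups had been implanted orthotopically (at the tumour's own site, the pancreas) with KPC32908, a mouse line of pancreatic cancer. Muscle of 4 further mice, which the series describes as having had sham surgery and the labels as untreated, is given as the background level. Those control mice are nonetheless labelled with the cell line's name. The muscle, the ages of the animals, the doses and the days of treatment are not given here, and a single line was implanted.

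Cachexia is the loss of muscle and fat that accompanies cancer. In wasting muscle, transcription factors of the FoxO family switch on ubiquitin ligases that tag proteins for the proteasome, and autophagy delivers organelles and proteins to lysosomes. Glucocorticoids, cytokines of the interleukin-6 family and ligands of the myostatin and activin family feed into this programme, and insulin-like growth factor acting through the kinases AKT and mTORC1 opposes it. Gemcitabine is a nucleoside analogue that stops DNA synthesis, and nab-paclitaxel is an albumin-bound drug that stabilises microtubules.

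Every subunit of the standard proteasome fell in treated muscle relative to vehicle muscle, as did most glucocorticoid-responsive genes, translation factors and ribosome assembly genes. Most genes of collagen, tendon, fibroblasts and the interferon response rose. These majorities held by DESeq2, by limma and with libraries scaled by their totals. More genes of autophagy, lysosome, p53 targets and antioxidant defence fell than rose, and more macrophage markers rose than fell, but under at least 1 of these alternatives the larger count was no majority of its list. In all, edgeR's quasi-likelihood test called 6357 of the 12760 genes (49.8%) with a Benjamini-Hochberg threshold of 0.05. Of all genes tested, 23.1% were called higher and 26.7% lower with treatment, and the 4 treated libraries lay entirely above the 4 vehicle libraries for 15.9% and entirely below for 17.8%. The counts for gene groups below are to be read against these shares. Over all genes tested the median log2 fold change was 0.02.

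**Figure D1:**
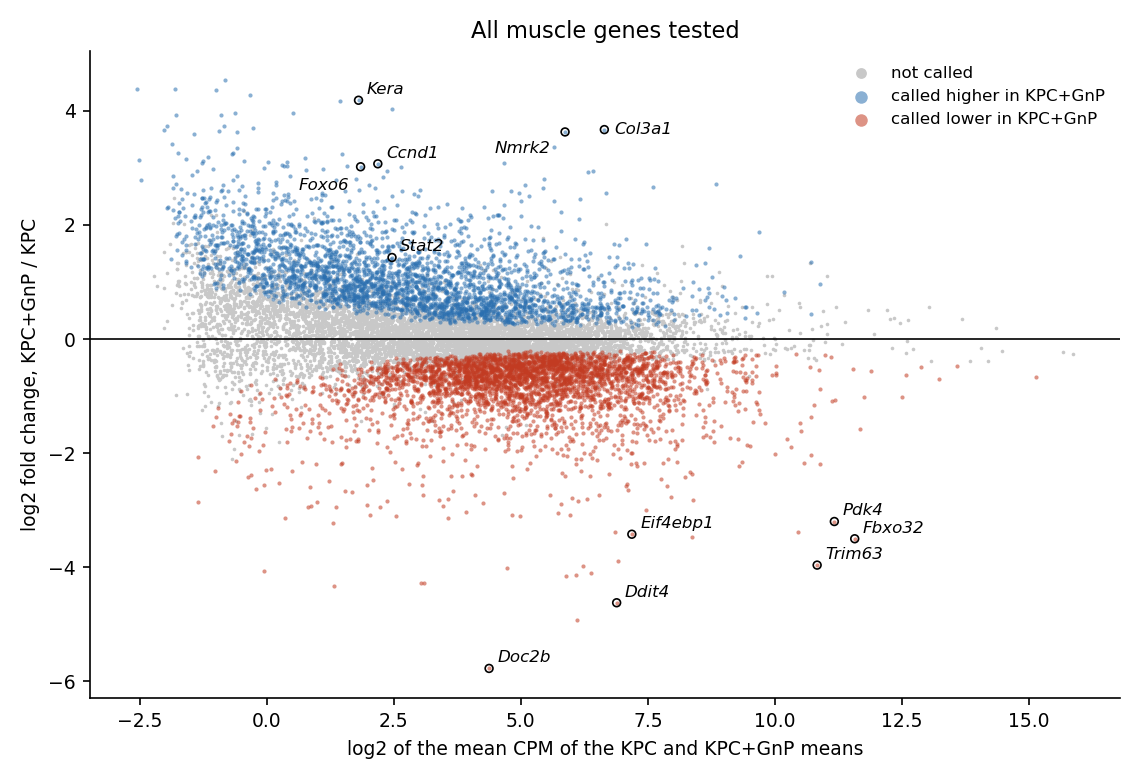
Log2 fold change (KPC+GnP over KPC muscle, vertical axis) of each of the 12760 genes tested against the log2 of its mean level in CPM (horizontal axis), coloured by whether edgeR called the gene higher, lower or neither. The 2945 genes called higher and the 3412 called lower lie on both sides of the median of 0.02, with Kera at the top and Doc2b at the bottom of the genes marked by name.

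Depth was 26031716 to 27382432 counts in the KPC libraries, above the 18285396 to 21379175 counts of the KPC+GnP libraries. Levels are given in CPM, which put the libraries on 1 scale by trimmed mean of M values. The 8 skeletal muscle fibre markers summed to 146665 to 236466 CPM in KPC and 150291 to 158352 CPM in KPC+GnP libraries, and the 5 heart muscle markers to 2.70 to 4.32 and 2.05 to 5.01 CPM. The library KPC 1 stood apart from its group. On the first principal component, which carried 66.0% of the variance, KPC 1 lay at 4.71, the other KPC libraries lay between 72.8 and 97.9, and the control and treated libraries lay between −42.0 and −23.5. The position of KPC 1 was taken over the 2896 called genes whose mean log2 CPM differed at least 2-fold between the treated libraries and KPC 2 to 4. Its median was 0.354 on a scale where the treated mean is 0 and the mean of KPC 2 to 4 is 1. KPC 1 was itself part of the fit that called those genes. The count column of this animal ends in a digit that its label lacks. The median within-group SD of log2 CPM was 0.342 in KPC muscle, 0.209 with KPC 1 left out, 0.189 in treated and 0.158 in control muscle. Without KPC 1, 62.4% of the genes then tested were called, 31.0% higher and 31.4% lower. Values without it are given below for a part of the genes and lists, and others can depend on it too.

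**Figure D2:**
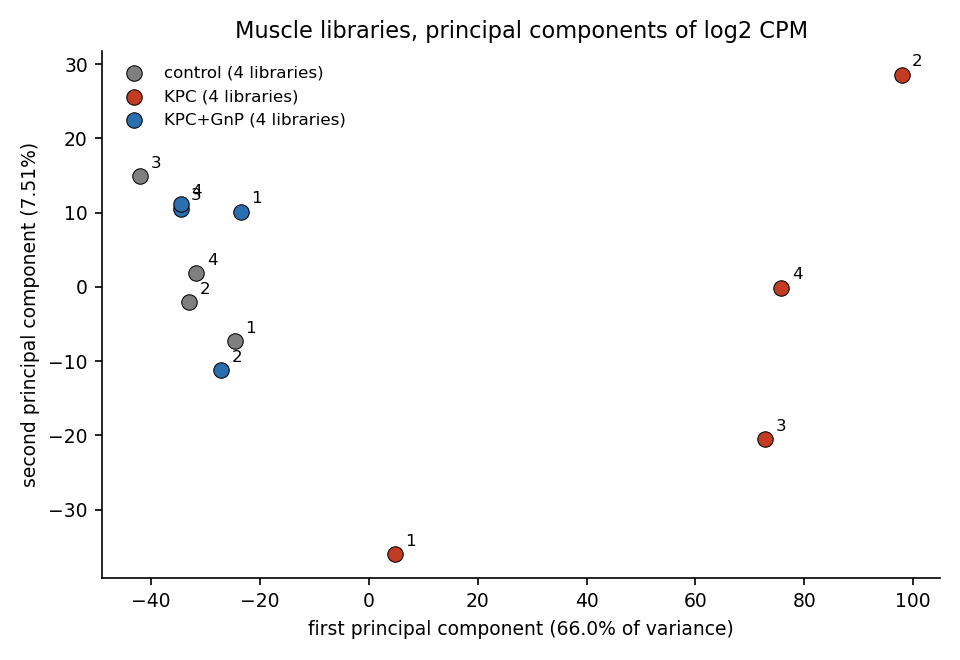
First and second principal component of log2 CPM for the 12 muscle libraries, numbered by replicate and coloured by group. KPC 1, at 4.71 on the first component, lies between the other 3 KPC libraries and the 8 control and treated libraries.

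More ubiquitin ligases of atrophy fell than rose with treatment. Of 20 such ligases, 14 fell and 2 rose, with a median log2 fold change of −0.45 and of −0.60 without KPC 1. When libraries were scaled by their totals, 8 fell and 4 rose, with a median of −0.21. Where that scaling moved the balance of a list by much, the counts it gave stand in brackets as by totals. Fbxo32, which encodes atrogin-1, was at 1388, 7579.8, 6861 and 6586 CPM in KPC 1 to 4 and at 527, 454, 534 and 463 CPM in the treated libraries. The lowest KPC library, KPC 1, was thus still above every treated library, and the log2 fold change of −3.5 (SE 0.43) became −3.82 without it. Trim63, which encodes the ligase MuRF1 that targets proteins of the thick filament, was at 527, 5355, 4078 and 3766 CPM in KPC and 207, 277, 202 and 194 CPM in treated muscle (log2 fold change −3.96 with SE 0.52, edgeR adjusted p = 0.000356). Fbxo21 fell by 0.88 on the log2 scale (SE 0.13), from 22 ± 3.42 to 11.9 ± 1.33 CPM (mean ± SD, n = 4), and Fbxo31, a ligase linked to cell cycle arrest, by 1.77 (SE 0.26). Fbxo30, whose product MUSA1 acts in denervated muscle, was at −0.28 (SE 0.25, edgeR adjusted p = 0.36), and at −0.51 without KPC 1. Klhl38, a member of the kelch-like family that was among the smallest p-values of all falling genes, was at 122, 205, 267 and 337 CPM in KPC and 45.2, 38.1, 40.5 and 35.2 CPM in treated muscle (log2 fold change −2.55 with SE 0.27, edgeR adjusted p = 0.000342).

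Every measured subunit of the standard proteasome fell. Of 14 core particle subunits 14 fell, with a median of −1.17, and of 18 subunits of the regulatory cap 18 fell, with a median of −1.28. Without KPC 1 the medians were −1.39 and −1.48. The summed level of the core subunits was 1380.4, 2975, 2463 and 2615 CPM in KPC 1 to 4 and 1111, 1127, 1021 and 1059.7 CPM in the treated libraries, with no overlap. Psmd4, the cap subunit that binds ubiquitin chains, was at 186, 526, 449 and 501 CPM in KPC and 112, 113, 101 and 109 CPM in treated muscle (log2 fold change −1.93 with SE 0.25, edgeR adjusted p = 0.00035). Psma7 and Psmb6, subunits of the core's outer and inner rings, fell by 1.81 (SE 0.25) and 0.68 (SE 0.10) on the log2 scale, and the cap ATPase Psmc5 by 1.11 (SE 0.14). Of 8 assembly factors 2 fell and 0 rose, one of them Pomp, the maturation factor of the core, by 0.57 (SE 0.083). Of the 5 subunits of the immunoproteasome, the form that interferon induces, 3 rose and 0 fell (5 and 0 by totals): Psmb9 rose by 1.68 (SE 0.52), Psmb10 by 0.76 (SE 0.26) and Psme1 by 0.93 (SE 0.25). Of these 5 subunits 0 had every treated library above every KPC library, against 15.9% of all genes. The call of Psmb9 was lost without KPC+GnP 2 (edgeR adjusted p = 0.0547) and that of Psmb10 without any one of KPC 2, 3 or 4 or KPC+GnP 1, 3 or 4 (up to 0.0757).

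In the ubiquitin system, Ubb, which encodes a chain of ubiquitin repeats, was at 99.1, 308, 236 and 279 CPM in KPC and 60.9, 73.9, 50.2 and 45.0 CPM in treated muscle (log2 fold change −2.0 with SE 0.29, edgeR adjusted p = 0.000467), and its groups did not overlap. Of 35 genes for ubiquitin and its activating and conjugating enzymes, 11 fell and 4 rose, and this balance turned to 4 lower and 11 higher when libraries were scaled by their totals. Of 33 deubiquitinases of the USP family 16 fell and 2 rose (7 and 5 by totals), among the falling ones Usp36 at −1.28 (SE 0.21), the nucleolar member of the family. Among 16 calpain and caspase genes, 3 fell and 1 rose (1 and 10 by totals).

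Of 44 genes of the autophagy machinery 31 fell and 3 rose (median −0.65), and of 42 lysosome genes 23 fell and 6 rose (13 and 10 by totals; median −0.39). Tfeb, the transcription factor that drives lysosome genes, was at 90.9, 120.4, 114 and 134 CPM in KPC and 50.3, 52.2, 44.4 and 56.7 CPM in treated muscle (log2 fold change −1.17 with SE 0.12, edgeR adjusted p = 0.000321), and KPC 1 lay nearer to its group than to the treated libraries. Sqstm1, the receptor that binds ubiquitinated cargo, was at 795, 2357, 2119 and 2212 CPM in KPC and 536, 684, 476 and 519 CPM in treated muscle. KPC 1 was the lowest of its group and KPC+GnP 2 the highest of the treated libraries, and the groups did not overlap. Map1lc3b and Gabarapl1, which encode proteins of the autophagosome membrane, both fell, with log2 fold changes of −1.60 (SE 0.23) and −1.94 (SE 0.42), and Bnip3, a receptor for mitochondria, fell by 2.16 (SE 0.34). Fam134b, a receptor for endoplasmic reticulum, was among the genes that fell most, by 3.39 (SE 0.53), from 2571 ± 1765 to 246 ± 30.7 CPM. In the lysosome, Ctsl, a protease, fell by 1.78 (SE 0.29) and Gaa, which breaks down glycogen, fell by 1.81 (SE 0.26).

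The promoter of Trim63 and those of the lysosome genes Ctsd and Mcoln1 are shown because they hold a short motif known from the regulators of these groups, on the DNA as read towards the gene. They are stretches of 100 bases that end before the start of transcription, from RefSeq on GRCm38.p6, and capitals mark the match. Windows ran from 250 bases before to 50 after each start, and both strands were searched. Trim63 (chr4:134314879-134314978, plus strand) holds the FoxO site GTAAACA on the opposite strand, and Ctsd (chr7:142387873-142387972, minus strand) and Mcoln1 (chr8:3500419-3500518, plus strand) hold TCACGTGA, the core of the CLEAR box that TFEB binds. Ctsd, a protease gene, and Mcoln1, a calcium channel gene, were chosen after their values and matches were seen.
Trim63: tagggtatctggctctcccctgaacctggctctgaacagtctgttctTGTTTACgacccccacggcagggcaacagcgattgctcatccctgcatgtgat
Ctsd: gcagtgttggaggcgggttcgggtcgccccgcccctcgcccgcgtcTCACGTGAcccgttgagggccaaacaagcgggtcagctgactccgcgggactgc
Mcoln1: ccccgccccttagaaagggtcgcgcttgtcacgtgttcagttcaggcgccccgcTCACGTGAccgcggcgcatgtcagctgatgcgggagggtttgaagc
The CLEAR core was found in 7 of 34 windows (20.6%) of the 32 lysosome genes, of 42, with an entry and in 0.974% of all 32851 windows, and in 1 of 42 windows (2.38%) of autophagy genes. The FoxO site was in 2 of 22 windows (9.09%) of 17 of the 20 atrophy ligases, against 3.65% of all windows, and in 0 of 42 windows of autophagy genes. The 2 ligase windows were those of Trim63 and of Mdm2, the ligase that degrades p53. The antioxidant response element core TGACNNNGC was in 2 of 12 windows of proteasome core genes (16.7%) and 3 of 16 of cap genes (18.8%), against 12.4% of all windows. It was in 9 of 31 windows (29.0%) of antioxidant genes of the NRF2 factor. None of the motifs searched contains another, TCACGTGA reads the same on both strands, and a match describes the sequence only. Ctsd fell by 1.15 (SE 0.23) and Mcoln1 by 0.33 (SE 0.10) on the log2 scale, a call lost without KPC 4 (edgeR adjusted p = 0.0522).

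The FoxO factors themselves moved in both directions. Foxo1 was at 171, 313, 231 and 218 CPM in KPC and 69.5, 106, 28.7 and 28.9 CPM in treated muscle (log2 fold change −2.0 with SE 0.36, edgeR adjusted p = 0.00112). The groups did not overlap, but KPC+GnP 1 and 2 lay above KPC+GnP 3 and 4, which were near the control range of 22.9 to 26.1 CPM. Foxo3 fell by 1.55 (SE 0.29) and Foxo4 by 0.42 (SE 0.13). Foxo6 rose from 1.80, 0.545, 0.450 and 0.372 to 6.03, 5.38, 6.18 and 7.96 CPM, one of the largest rises of all genes (log2 fold change 3.02 with SE 0.39, edgeR adjusted p = 0.000351).

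Of 23 genes that respond to glucocorticoids 17 fell and 2 rose, and their median log2 fold change, −1.53, was the lowest of the 75 lists. Ddit4, an inhibitor of mTORC1, was at 45.6, 282, 294 and 288 CPM in KPC and 8.18, 17.3, 4.41 and 6.93 CPM in treated muscle, against 4.47 to 9.53 CPM in controls. Its level in KPC 1 was several times below that of the other KPC libraries but above every treated library. Cebpd, a stress-induced transcription factor, fell by 4.10 (SE 0.49), Klf15, a regulator of amino acid breakdown in muscle, by 2.01 (SE 0.25), and Pik3r1, the regulatory subunit of a kinase in insulin signalling, by 1.53 (SE 0.22). Fkbp5, which restrains the glucocorticoid receptor, was at 201, 540.1, 334 and 393 CPM in KPC and 67.4, 115, 41.4 and 45.0 CPM in treated muscle (log2 fold change −2.45 with SE 0.39, edgeR adjusted p = 0.00063). KPC+GnP 1 and 2 carried more of it than KPC+GnP 3 and 4. Tsc22d3, which encodes the leucine zipper protein GILZ, fell by 0.89 (SE 0.22), and Nr3c1, the receptor gene, was at 0.23 (SE 0.19, edgeR adjusted p = 0.318). The core of the glucocorticoid response element, ACANNNTGT, was in 5 of 31 windows (16.1%) of these genes and in 6.85% of all windows.

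Of 18 interleukin-6 family receptors and STAT3 pathway genes 5 fell and 2 rose (3 and 5 by totals). Il6ra, the ligand-binding receptor subunit, was at 13.6, 225, 86.4 and 122 CPM in KPC and 6.23, 8.75, 5.16 and 4.81 CPM in treated muscle (log2 fold change −4.16 with SE 0.61, edgeR adjusted p = 0.000477). KPC 2 held the most and KPC 1 the least of its group, and the groups did not overlap. Il6st, the shared signalling subunit gp130, fell by 0.84 (SE 0.16), and Lifr, the receptor of leukaemia inhibitory factor, rose by 1.05 (SE 0.13). Stat3 fell by 0.53 (SE 0.14), Socs3, a feedback inhibitor, was at −0.20 (SE 0.36, edgeR adjusted p = 0.661) and Osmr, the oncostatin M receptor, at −0.21 (SE 0.20, edgeR adjusted p = 0.389). Of 20 acute phase and complement genes 3 fell and 7 rose. Lrg1, an acute phase glycoprotein, fell by 1.16 (SE 0.17), whereas the complement genes C1s1 and Serping1 rose by 1.11 (SE 0.24) and 0.92 (SE 0.21). Of 21 NF-kappaB targets 9 fell and 3 rose (5 and 5 by totals). Nfkbia and Nfkbib, inhibitors of NF-kappaB, fell by 1.26 (SE 0.16) and 1.42 (SE 0.17). Tnfaip2, a gene induced by tumour necrosis factor, had the smallest p-value of all rising genes, at 12.4, 8.57, 7.49 and 8.92 CPM in KPC and 40.2, 27, 52.1 and 43.6 CPM in treated muscle (log2 fold change 2.12 with SE 0.20, edgeR adjusted p = 0.000318).

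Of 29 genes of insulin-like growth factor and insulin signalling 8 rose and 15 fell (10 and 9 by totals). Igf1 was at 11.6, 16.8, 13.6 and 19.7 CPM in KPC and 41.5, 34.2, 41.6 and 27 CPM in treated muscle, with no overlap and with the lowest level in KPC 1. Igfbp5, a binding protein for the growth factor, rose by 2.72 (SE 0.72), or 4.54 without KPC 1, from 379.9, 23.6, 41.0 and 37.7 CPM to 584, 769, 1062 and 757 CPM. Akt1 fell by 1.77 (SE 0.32), and Irs2, an adaptor of the insulin receptor, by 1.43 (SE 0.44), a call lost without KPC 2 (edgeR adjusted p = 0.0597). Of 32 genes for mTORC1 components and its brakes 18 fell and 4 rose (9 and 9 by totals). The falling ones included brakes: Sesn1, a leucine sensor, fell from 211 ± 128 to 20.2 ± 1.81 CPM (log2 fold change −3.38 with SE 0.50, edgeR adjusted p = 0.000472), and Eif4ebp1, which blocks the cap-binding factor until mTORC1 phosphorylates it, from 54.9, 380.1, 273 and 357 CPM in KPC 1 to 4 to 22.3, 31.6, 18.3 and 27 CPM. Akt1s1, the mTORC1 inhibitor PRAS40, fell by 0.69 (SE 0.092), Deptor, another inhibitor, was at 0.73 (SE 0.36, edgeR adjusted p = 0.106; 1.44 without KPC 1) and the kinase Mtor fell by 0.80 (SE 0.18).

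Of 32 genes of myostatin and activin signalling, 13 rose and 9 fell (16 and 4 by totals). Mstn itself was at 143, 389.7, 273 and 389 CPM in KPC and 85.4, 204, 100.5 and 113 CPM in treated muscle, a fall of 1.25 on the log2 scale (SE 0.33) in which the groups overlapped. The falling genes included Acvr1b, a type I activin receptor, at −1.73 (SE 0.26), and the rising ones Gdf11, the closest relative of myostatin, at 1.88 (SE 0.34), Bmp1, a protease that activates it, at 1.74 (SE 0.28), and Fstl1, a follistatin-like secreted protein, at 1.99 (SE 0.38).

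**Figure D3:**
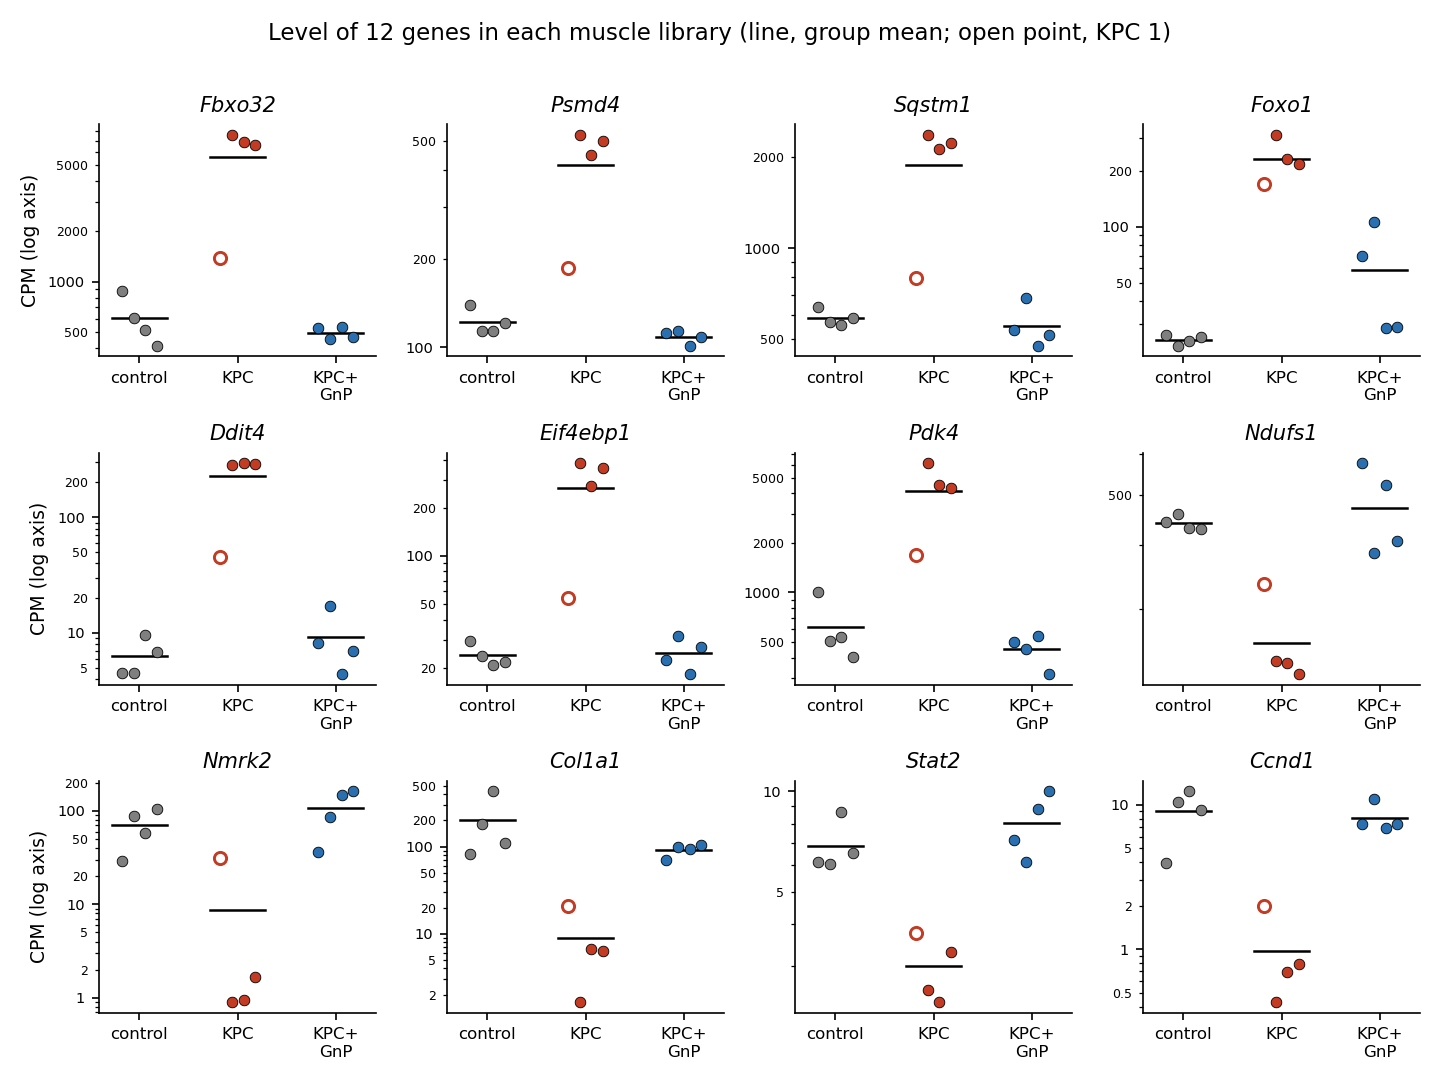
Level in CPM (log axis) of 12 genes in each of the 4 control, 4 KPC and 4 KPC+GnP libraries, with the group means as lines and KPC 1 as an open point. In each gene the treated points lie on one side of the KPC points, and KPC 1 is the KPC point nearest to them.

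Most genes of protein synthesis fell, by smaller medians than the proteasome. Of 45 large and 33 small ribosomal subunit proteins, 35 and 30 fell and 0 and 0 rose (by totals 23 and 17 fell and 0 rose), with medians of −0.48 and −0.49. Ribosomal protein genes have near-identical copies in the genome, and no source used here says how reads that match several places were counted. Rpl22 was at 159, 178, 169.6 and 173 CPM in KPC and 94.2, 97.3, 87.2 and 109 CPM in treated muscle (log2 fold change −0.81 with SE 0.10, edgeR adjusted p = 0.000349). Of 45 initiation and elongation factors 39 fell and 1 rose (median −0.63). Eif4b, a helper of the initiation helicase, and Eif3f, an initiation factor subunit, had among the smallest p-values of all falling genes, at −1.12 (SE 0.11) and −0.89 (SE 0.092). The 1 factor that rose was Eif4e, the cap-binding protein that 4E-BP1 restrains, at 0.42 (SE 0.12, edgeR adjusted p = 0.0118), with overlapping groups. By totals 3 factors rose and 32 fell. Eef2, an elongation factor, fell by 0.87 (SE 0.11).

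Genes that build ribosomes and charge transfer RNAs fell too. Of 38 ribosome biogenesis genes 35 fell and 0 rose (median −0.79, −0.94 without KPC 1), with Npm1, the nucleolar protein nucleophosmin, at −1.16 (SE 0.16), Nop2, a ribosomal RNA methyltransferase, at −1.02 (SE 0.15) and Noc2l at −0.81 (SE 0.087). Of 23 cytosolic aminoacyl-tRNA synthetases 20 fell and 0 rose, among them Gars for glycine at −0.80 (SE 0.11) and Vars for valine at −1.84 (SE 0.22). Their 17 mitochondrial counterparts, with 2 rising and 3 falling (8 and 1 by totals), had a median of 0.083. Atf4, the factor that switches on amino acid stress genes, was at 253, 516, 459 and 454 CPM in KPC and 169.5, 166, 160.1 and 175 CPM in treated muscle (log2 fold change −1.33 with SE 0.17, edgeR adjusted p = 0.000356), and 11 of 24 genes of that response fell while 3 rose (8 and 5 by totals). Asns, its target asparagine synthetase, fell by 0.91 (SE 0.29), a call lost without any one of KPC 3 or 4 or KPC+GnP 1 or 4 (edgeR adjusted p up to 0.0644). Of 30 endoplasmic reticulum chaperones and unfolded protein genes 16 fell and 2 rose (7 and 4 by totals), with Xbp1 at −1.07 (SE 0.19), and of 35 cytosolic heat shock chaperones 16 fell and 3 rose (10 and 9 by totals), the falling ones including subunits of the actin- and tubulin-folding chaperonin such as Tcp1 at −0.70 (SE 0.089) and Cct2 at −1.03 (SE 0.15).

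Metabolic lists were divided. Pdk4, the kinase that shuts pyruvate dehydrogenase, was at 1690.2, 6117, 4529 and 4320.1 CPM in KPC and 501, 449, 544 and 318 CPM in treated muscle (log2 fold change −3.20 with SE 0.38, edgeR adjusted p = 0.000349). KPC 1 lay below the other KPC libraries and above every treated library. Dlat, a subunit of the pyruvate dehydrogenase complex that the kinase inhibits, rose by 1.07 (SE 0.20), and of 15 genes of pyruvate entry 7 rose and 3 fell (12 and 2 by totals). Of 42 genes of fatty acid oxidation and targets of PPAR receptors 13 fell and 2 rose (median −0.17), and with scaling by totals 11 fell and 11 rose (median 0.074). The largest falls were those of Acot1, a thioesterase of fatty acyl-CoA, from 1.93, 42.2, 9.25 and 9.30 to 1.23, 0.512, 0.697 and 0.810 CPM (log2 fold change −4.28, SE 0.75; −3.08 without KPC 2), and Angptl4, a secreted inhibitor of lipoprotein lipase, at −3.11 (SE 0.46). Ucp3, a mitochondrial carrier induced by fatty acids, fell by 1.42 (SE 0.27). Of 28 genes of lipid droplets 8 fell and 7 rose (7 and 11 by totals): Pnpla2, which encodes adipose triglyceride lipase, fell by 1.62 (SE 0.28) and Lpin1, a lipin, by 1.48 (SE 0.25), whereas Scd2, a fatty acid desaturase, rose by 1.91 (SE 0.30).

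Respiratory chain genes that passed the test rose in nearly every case. Of 36 nuclear-encoded complex I subunits 11 rose and 0 fell, with a median of 0.42 that became 0.62 without KPC 1. Of 38 subunits of complexes III to V 16 rose and 1 fell (median 0.43, 0.63 without KPC 1), and of 25 enzymes of the tricarboxylic acid cycle 8 rose and 0 fell. Without KPC 1, 30, 31 and 14 members of these lists were called higher, and with scaling by totals 31, 32 and 18. With all libraries, 1 of the 36, 0 of the 38 and 0 of the 25 members had every treated library above every KPC library. Of all genes, 15.9% did. That 1 member was Ndufs1, a complex I subunit, at 335, 239, 235 and 225 CPM in KPC and 575, 385, 521 and 406 CPM in treated muscle. The summed level of each list overlapped between the groups. For complex I it was 4561 CPM in KPC+GnP 2 and 5920 CPM in KPC 1. For the tricarboxylic acid cycle KPC+GnP 2, at 7974 CPM, lay below every KPC library. Cycs, which encodes cytochrome c, rose by 1.01 (SE 0.24), and Ppargc1a, the coactivator PGC-1α that drives mitochondrial genes, rose by 0.81 (SE 0.24), although its groups overlapped and the call was lost without KPC+GnP 1 (log2 fold change 0.53, edgeR adjusted p = 0.0518). Of 76 mitochondrial ribosomal proteins 15 rose and 16 fell (29 and 4 by totals). Of 37 glycolysis and glycogen genes 5 rose and 5 fell (14 and 3 by totals). Hk2, hexokinase, rose by 0.68 (SE 0.16) and Ugp2, which supplies glycogen synthesis, fell by 1.36 (SE 0.30).

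Amino acid, nicotinamide and metal handling showed large changes of single genes. Glul, glutamine synthetase, was at 1303, 1912, 1682 and 1723 CPM in KPC and 467, 588, 330.2 and 257 CPM in treated muscle (log2 fold change −2.01 with SE 0.30, edgeR adjusted p = 0.000509). Of 25 genes of branched-chain amino acid breakdown and glutamine synthesis 12 fell and 1 rose (6 and 7 by totals), with Slc43a1, an amino acid transporter, at −2.17 (SE 0.28). Odc1, the first enzyme of polyamine synthesis, fell by 1.2 (SE 0.23). Nmrk2, a nicotinamide riboside kinase of muscle, was at 31.6, 0.896, 0.942 and 1.65 CPM in KPC 1 to 4 and 36.6, 86.3, 148 and 162 CPM in treated muscle (log2 fold change 3.63 with SE 1.02, edgeR adjusted p = 0.0111). KPC 1 lay just below the lowest treated library and the other KPC libraries far below it, and without KPC 1 the log2 fold change was 6.54. Nampt, the rate-limiting enzyme of NAD salvage, was at −0.26 (SE 0.18, edgeR adjusted p = 0.233). Tfrc, the transferrin receptor, rose by 2.55 (SE 0.60), or 3.90 without KPC 1, from 84.1, 11.6, 13.5 and 9.92 to 131, 194, 173 and 201 CPM. Slc39a14, an importer of zinc and iron, fell by 3.89 (SE 0.71) and Mt1, a metallothionein, fell by 3.98 (SE 0.79), with overlapping groups in both. For Mt1 the treated libraries held 4.65, 23.1, 3.76 and 4.05 CPM, the most in KPC+GnP 2, and the KPC libraries 18.2, 323, 99.7 and 124 CPM, the least in KPC 1. Of 29 antioxidant genes of the NRF2 factor 15 fell and 3 rose (10 and 4 by totals), with Sod1, superoxide dismutase, at −1.02 (SE 0.16) and Gpx3, a secreted glutathione peroxidase, at −1.24 (SE 0.14). Gstm2, a glutathione transferase outside that list, had the smallest p-value of all falling genes, at 68.3, 80.3, 77.7 and 76.9 CPM in KPC and 20.03, 30.1, 24.8 and 27.9 CPM in treated muscle (log2 fold change −1.56 with SE 0.12, edgeR adjusted p = 0.000121).

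Of 10 troponin and tropomyosin genes 0 passed edgeR's test, or that of DESeq2 or limma, and 1 had an unadjusted p under 0.05. Their median was 0.43, and without KPC 1 it was 0.81 and 3 rose. Of 24 myosin heavy chains and regulators of fibre type 5 rose and 2 fell (7 and 1 by totals). Myh4, the chain of the fastest fibres, took a mean of 90.2% (SD 3.5, n = 4) of the summed FPKM, a measure scaled by transcript length, of 7 myosin heavy chains in KPC and 87.6% (SD 4.90) in treated muscle. Myh2, the chain of fast oxidative fibres, was at 1939, 1193, 696 and 1291 CPM in KPC and 2753, 818, 3498 and 2957 CPM in treated muscle (log2 fold change 0.97 with SE 0.37, edgeR adjusted p = 0.0454), KPC+GnP 2 lying within the KPC range. That call was lost without any one library other than KPC 1 and KPC+GnP 2 (edgeR adjusted p up to 0.134). Myh1 was at −0.16 (SE 0.29) and Myh7, the slow chain, at 0.81 (SE 0.66), with edgeR adjusted p of 0.663 and 0.318. Mylk2, the kinase of the myosin light chain in skeletal muscle, fell by 1.47 (SE 0.19).

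Of 40 sarcomere scaffold and Z disc genes 16 fell and 1 rose, a balance of 10 and 11 with scaling by totals. Flnc, a filamin that holds the Z disc, was at 641, 4346, 2641 and 4843 CPM in KPC and 655, 701, 657 and 718 CPM in treated muscle (log2 fold change −2.19 with SE 0.43, edgeR adjusted p = 0.00158), and KPC 1 lay below every treated library while the other KPC libraries lay far above. Nrap, an actin-binding scaffold, fell by 1.57 (SE 0.30) and Des, desmin, by 0.56 (SE 0.10). Ttn, titin, was at −0.38 (SE 0.21, edgeR adjusted p = 0.141). Of 18 genes of the dystrophin complex, of which by totals 3 fell and 7 rose, 7 fell, Dmd by 0.85 (SE 0.24), and 6 rose, Sgcd, a sarcoglycan, by 1.09 (SE 0.14). Of 36 genes of excitation and calcium handling 6 rose and 4 fell (20 and 4 by totals): Ryr1, the calcium release channel, fell by 0.64 (SE 0.13), Atp2a1, the calcium pump of fast fibres, by 0.66 (SE 0.16), and Sln, sarcolipin, an inhibitor of that pump, by 2.94 (SE 0.69). Calm2, a calmodulin gene, rose by 1.65 (SE 0.39), or 2.46 without KPC 1. Abcc8, the sulphonylurea receptor subunit of a potassium channel, was at 4.78, 32.4, 15 and 32.9 CPM in KPC and 2.96, 2.60, 1.58 and 2.56 CPM in treated muscle (log2 fold change −3.13 with SE 0.50, edgeR adjusted p = 0.000636). Kcng4, a silent potassium channel subunit, rose from 16.4, 1.09, 2.38 and 1.45 to 52.1, 31.7, 52.8 and 44.6 CPM (log2 fold change 3.09, SE 0.67; 4.79 without KPC 1). Doc2b, a calcium sensor of vesicle fusion and the gene that fell most, was at 4.04, 109.8, 20.9 and 28.2 CPM in KPC and 0.460, 1.84, 0.372 and 0.225 CPM in treated muscle; one library, KPC 2, held most of that level, and without it the log2 fold change of −5.78 (SE 0.92) was −4.58.

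Of 19 genes of the neuromuscular junction and of denervation 4 rose and 3 fell (8 and 2 by totals). Gadd45a, a stress gene induced by denervation, was at 32.3, 132, 105 and 105 CPM in KPC and 21, 21.3, 19 and 12.2 CPM in treated muscle (log2 fold change −2.35 with SE 0.34, edgeR adjusted p = 0.000465). Musk, the receptor kinase of the synapse, fell by 1.19 (SE 0.40), a call lost without any one of KPC 2 or 4 or KPC+GnP 1, 3 or 4 (edgeR adjusted p up to 0.0915). Lrp4, its partner, rose by 1.63 (SE 0.37), and Chrna1, a subunit of the acetylcholine receptor that denervation induces, was at −0.13 (SE 0.14, edgeR adjusted p = 0.466). Of 19 myogenic and satellite cell genes 7 rose and 2 fell: Pax7, the satellite cell factor, was at 0.790, 0.779, 0.328 and 0.578 CPM in KPC and 2.04, 2.39, 2.23 and 2.52 CPM in treated muscle (log2 fold change 1.88 with SE 0.27, edgeR adjusted p = 0.000465). Myod1, the determination factor, rose by 1.64 (SE 0.33), Cdh15, M-cadherin, fell by 1.17 (SE 0.15), and Myog, myogenin, was at −0.22 (SE 0.47, edgeR adjusted p = 0.716). The summed level of the 4 satellite cell markers, which Cdh15 leads, was 30.0 to 43.4 CPM in KPC and 17.1 to 21.2 CPM in treated muscle. In the clock, Rora, a nuclear receptor, fell by 1.53 (SE 0.27), Cry2, a repressor, by 2.02 (SE 0.33) and Arntl, the activator BMAL1, by 1.68 (SE 0.43). Dbp, an output factor of the clock, rose by 2.22 (SE 0.71), or 4.05 without KPC 1, and lost its call without KPC 3 or 4 (edgeR adjusted p up to 0.0574). Of 19 clock genes 5 rose and 6 fell (7 and 5 by totals). The hours at which tissue was taken are not stated in these sources.

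**Figure D4:**
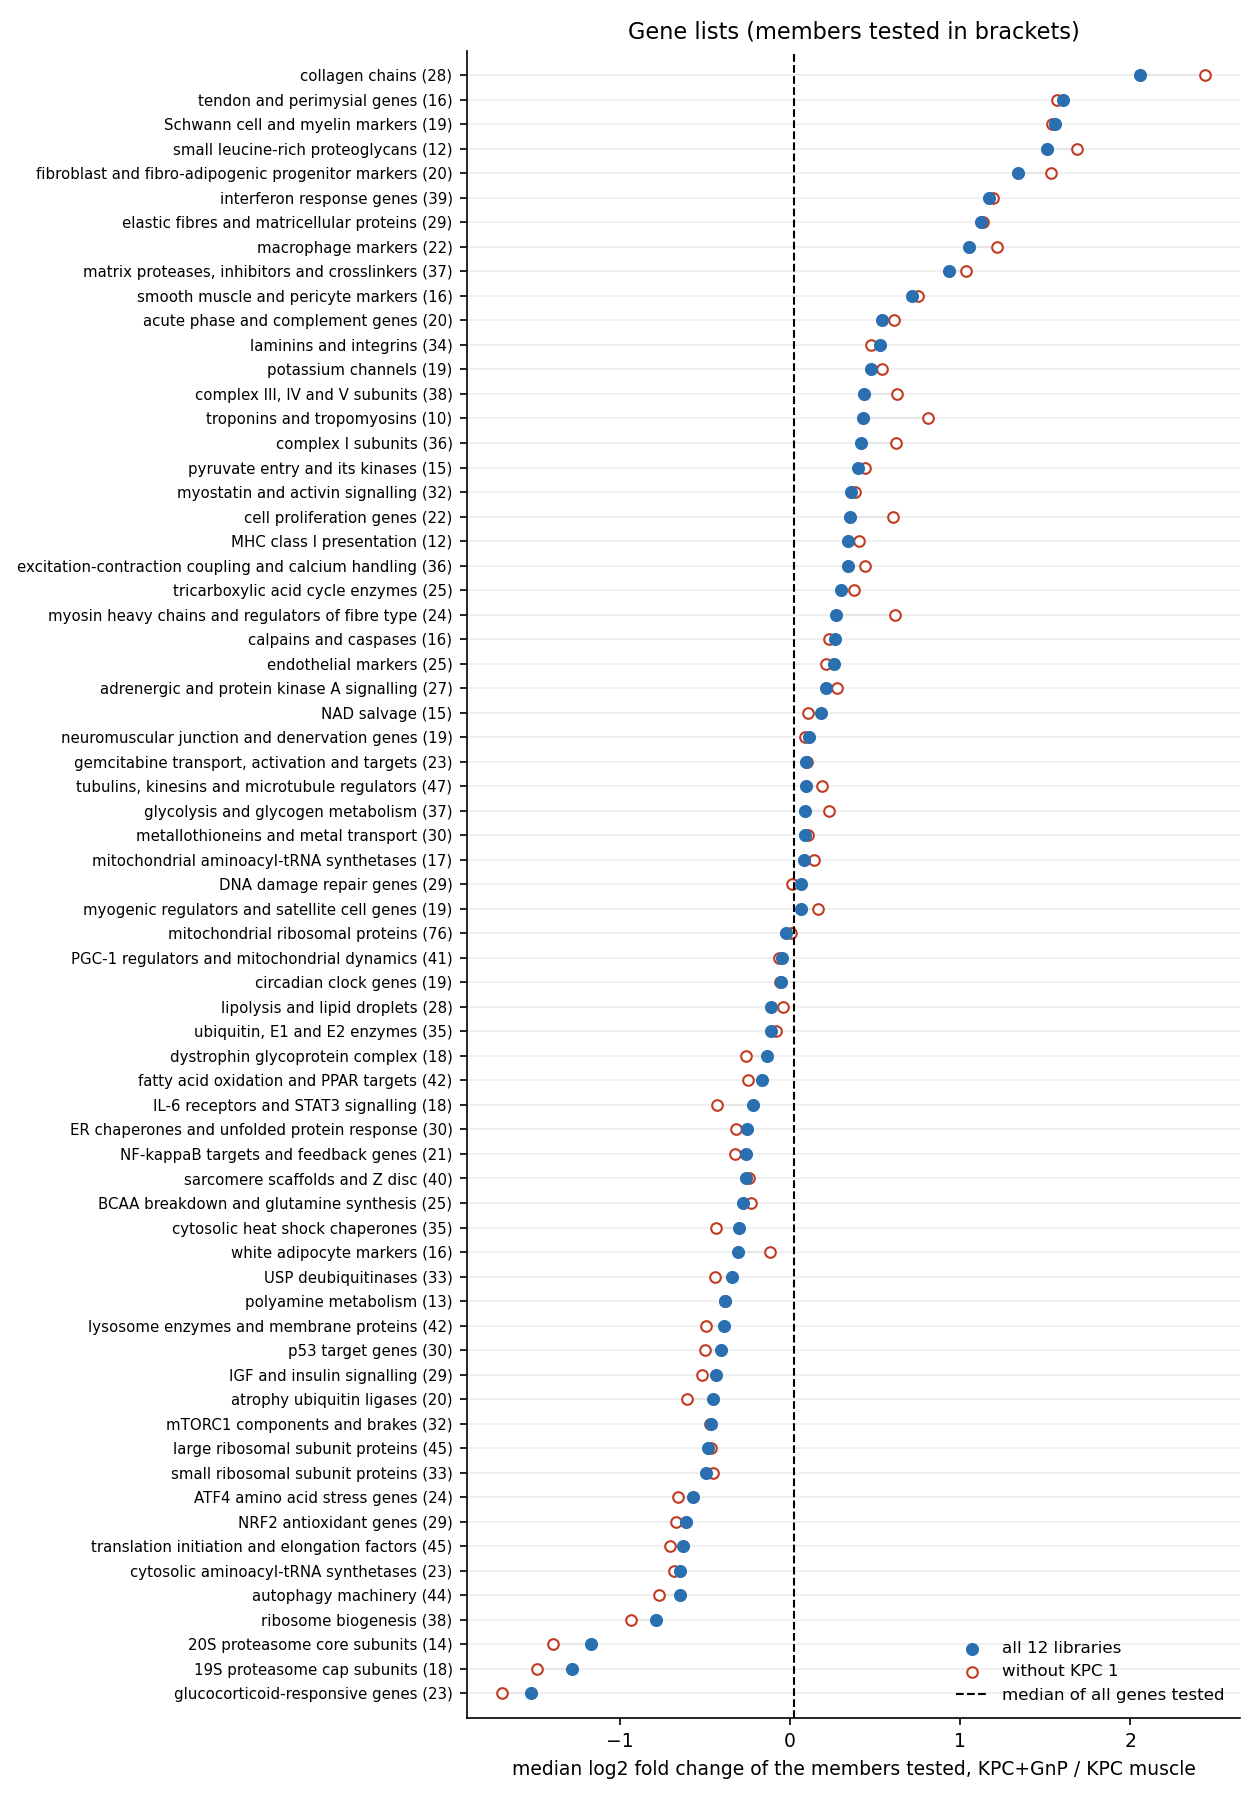
Median log2 fold change (KPC+GnP over KPC muscle) of the tested members of each gene list with at least 10 of them, from all 12 libraries (filled) and without KPC 1 (open), with the median of all genes as a dashed line. Glucocorticoid-responsive and proteasome genes lie lowest and collagens highest, and leaving out KPC 1 moves these medians away from 0.

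Of 28 collagen chains 26 rose and 0 fell, with a median log2 fold change of 2.06, the highest of the 75 lists, or 2.44 without KPC 1. Col1a1, a chain of fibrillar collagen, was at 20.9, 1.64, 6.72 and 6.28 CPM in KPC and 70.3, 99.1, 92.8 and 105 CPM in treated muscle (log2 fold change 3.37 with SE 0.66, edgeR adjusted p = 0.00164), and at 82.8 to 431 CPM in controls. All 4 treated libraries were above all 4 KPC libraries, and 2 of the 4 control libraries were above every treated one. Col3a1 rose by 3.67 (SE 0.71), Col5a1 by 2.60 (SE 0.43) and Col15a1, a chain of the basement membrane zone, by 2.16 (SE 0.35), whereas Col4a1, the basement membrane chain proper, rose by 0.65 (SE 0.22) with overlapping groups, a call lost without KPC 3 or 4 or KPC+GnP 3 (edgeR adjusted p up to 0.0755). Because these are whole tissue libraries, fewer cells of a type and less RNA per cell cannot be told apart.

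Most genes whose products bind or crosslink collagen rose too. Of 12 small leucine-rich proteoglycans 12 rose, Lum by 2.36 (SE 0.40), Ogn by 1.74 (SE 0.21), and Ecm2 from 7.68, 6.08, 5.08 and 5.37 to 14.4, 17.9, 18.9 and 18.5 CPM (log2 fold change 1.52 with SE 0.15, edgeR adjusted p = 0.000318). Chad, a cartilage and tendon proteoglycan, was at 2.06, 0.117, 0.205 and 0.207 CPM in KPC and 13.6, 6.45, 10.7 and 10.9 CPM in treated muscle, and Kera at 1.4, 0.0390, 0.0409 and 0 and 8.79, 4.78, 7.11 and 5.76 CPM. Their log2 fold changes of 4.03 (SE 0.62) and 4.19 (SE 0.82) were the largest rises of the named genes. Without KPC 1 that of Chad was 5.85, and none is given for Kera, of which KPC 2 to 4 held 1, 1 and 0 counts. Of 37 matrix proteases, inhibitors and crosslinkers 21 rose and 2 fell, with Serpinh1, the collagen chaperone, at 1.75 (SE 0.27) and Loxl2, a crosslinking oxidase, at 2.54 (SE 0.43), while Lox was at −0.50 (SE 0.35, edgeR adjusted p = 0.243). Of 29 elastic fibre and matricellular genes 20 rose and 1 fell, Fbn1, fibrillin, by 2.70 (SE 0.42) and Fn1, fibronectin, by 1.76 (SE 0.38). Postn, periostin, rose from 2.02, 0.584, 3.15 and 0.744 to 6.18, 5.98, 9.11 and 7.74 CPM, within the control range of 4.98 to 81.9 CPM. Its adjusted p of 0.045 by edgeR passed the threshold narrowly and did not without KPC 1, 2 or 4, any treated library or control 2 (up to 0.111). Of 34 laminins, integrins and linked genes 17 rose and 1 fell, Lama4 by 1.63 (SE 0.23).

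Markers of tendon and fibroblasts moved with these genes. Of 16 tendon and perimysial genes 12 rose, Tnmd, tenomodulin, from 1.67, 0.0779, 0.123 and 0.289 to 7.82, 2.43, 5.44 and 4.45 CPM (log2 fold change 3.24 with SE 0.77, edgeR adjusted p = 0.00477; log2 fold change 4.91 without KPC 1). The 5 tendon markers, all of which rose, summed to 42.3, 7.17, 13.1 and 9.79 CPM in KPC 1 to 4 and 115, 77.2, 98.3 and 111 CPM in the treated libraries, against 79.1 to 158 CPM in controls. The 6 fibroblast markers, all of which rose, summed to 202 to 304 CPM in KPC, 388 to 653 CPM in treated and 404 to 545 CPM in control muscle. Neither marker set was at 0 in any group, and the part of cell make-up in the rise of the matrix genes was not tested. In the wider list of 20 fibroblast and progenitor genes 16 rose and 0 fell, among them Pdgfra, the receptor that marks fibro-adipogenic progenitors, at 15.5, 9.43, 8.84 and 13.2 CPM in KPC and 17.5, 39.6, 29.6 and 26.5 CPM in treated muscle, with no overlap. Cxcl12, a chemokine of stromal cells, rose by 1.4 (SE 0.19) and Thy1, a surface marker, by 2.81 (SE 0.36).

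Of 16 smooth muscle and pericyte markers 10 rose and 1 fell, and Acta2, smooth muscle actin, was at 13.1, 12, 9.70 and 11.2 CPM in KPC and 31.1, 30.0, 27.8 and 35.0 CPM in treated muscle (log2 fold change 1.43 with SE 0.15, edgeR adjusted p = 0.000342). Of 25 endothelial markers 9 rose and 3 fell (14 and 1 by totals). Pecam1, the general endothelial marker, was at −0.086 (SE 0.19, edgeR adjusted p = 0.719), whereas Apln, a peptide of growing vessels, rose by 3.70 (SE 0.49) and its receptor Aplnr by 1.81 (SE 0.29). Of 19 Schwann cell genes 8 rose and 1 fell (15 and 1 by totals). Their 6 markers summed to 33.3, 29.6, 16.8 and 46.6 CPM in KPC and 46.8, 27.9, 187 and 153 CPM in treated muscle, high in KPC+GnP 3 and 4 and overlapping in the other libraries. Of 16 white adipocyte markers 1 rose and 2 fell, and Adipoq, adiponectin, was at −1.44 (SE 0.68, edgeR adjusted p = 0.0928). The 6 adipocyte markers summed to 109, 40.6, 156 and 33.5 CPM in KPC and 5.62, 31.6, 52.7 and 29.7 CPM in treated muscle.

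Of 22 macrophage markers 13 rose and 0 fell, or 10 and 0 by limma. Only 3 (13.6%) had all treated libraries above all KPC libraries, against 15.9% of all genes. Csf1r, the receptor of their growth factor, was at 7.46, 6.27, 6.67 and 6.53 CPM in KPC and 8.58, 23.4, 14.5 and 14.5 CPM in treated muscle, with no overlap. Adgre1, which encodes F4/80, was at 1.54, 1.09, 0.942 and 1.74 and 1.18, 8.75, 2.69 and 2.70 CPM, and KPC+GnP 2 held the most. The log2 fold change of 1.54 was 0.73 without that library (edgeR adjusted p = 0.183), and the call was also lost without KPC 2 or 3. The 6 macrophage markers summed to 61.5, 40.3, 53.8 and 59.7 CPM in KPC and 51.5, 213, 112 and 76.5 CPM in treated muscle. KPC+GnP 1 lay within the KPC range and KPC+GnP 2 far above it. Ptprc, the marker of all leukocytes, rose by 1.43 (SE 0.45), a call lost without KPC+GnP 2 (edgeR adjusted p = 0.0669). S100a8, a neutrophil gene, was at 0.17 (SE 0.71, edgeR adjusted p = 0.851). None of 6 lymphocyte markers, of which 5 were listed, had enough counts to be tested, and they summed to 0.156 to 0.351 CPM in KPC and 0 to 0.836 CPM in treated muscle. The neutrophil, erythroid and pancreatic tumour marker sets summed to at most 13.2 CPM in any KPC or treated library.

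Of 39 interferon response genes 32 rose and 1 fell, with a median of 1.17 and of 1.19 without KPC 1. The 41 listed interferon genes summed to 168, 124, 149 and 140 CPM in KPC and 232, 249, 278 and 251 CPM in treated muscle, with no overlap. In the macrophage marker sum, given above, KPC+GnP 1 lay within the KPC range. The part of macrophages in the rise of the interferon genes was not tested. Stat2, a subunit of the transcription factor that interferon activates, was at 3.77, 2.53, 2.33 and 3.31 CPM in KPC and 7.15, 6.15, 8.87 and 9.99 CPM in treated muscle (log2 fold change 1.43 with SE 0.21, edgeR adjusted p = 0.000467), and at 6.07 to 8.67 CPM in controls. Oasl2 and Eif2ak2, antiviral effectors, rose by 1.88 (SE 0.28) and 1.17 (SE 0.20), and Irf7, a regulator of interferon genes, by 1.2 (SE 0.31). Of 12 genes of class I antigen presentation 6 rose and 1 fell (7 and 0 by totals), with B2m at 0.88 (SE 0.16) and the peptide transporter Tap1 at 1.09 (SE 0.28), and of 7 class II genes 2 rose (7 by totals), Ciita, their master regulator, by 2.5 (SE 0.61). The promoters of Stat2 (chr10:128270248-128270347, plus strand) and of the interferon-induced GTPase gene Gbp3 (chr3:142559944-142560043, plus strand), chosen after the values and matches were seen, are shown for the interferon-stimulated response element core GAAANNGAA, marked in capitals on either strand. They are stretches of 100 bases before the start, from RefSeq on GRCm38.p6.
Stat2: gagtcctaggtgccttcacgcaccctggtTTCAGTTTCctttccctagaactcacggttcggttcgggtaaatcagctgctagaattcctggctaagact
Gbp3: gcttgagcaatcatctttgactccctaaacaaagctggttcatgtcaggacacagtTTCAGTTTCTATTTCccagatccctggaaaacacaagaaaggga
Stat2 carries 1 match and Gbp3 2 that overlap each other. The core was found in 19 of 33 windows (57.6%) of the 29 interferon genes with an entry, against 2812 of all 32851 windows (8.56%), and with windows cut at the start in 15 of 33 (45.5%) against 7.13%. Gbp3 rose by 1.98 (SE 0.35).

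**Figure D5:**
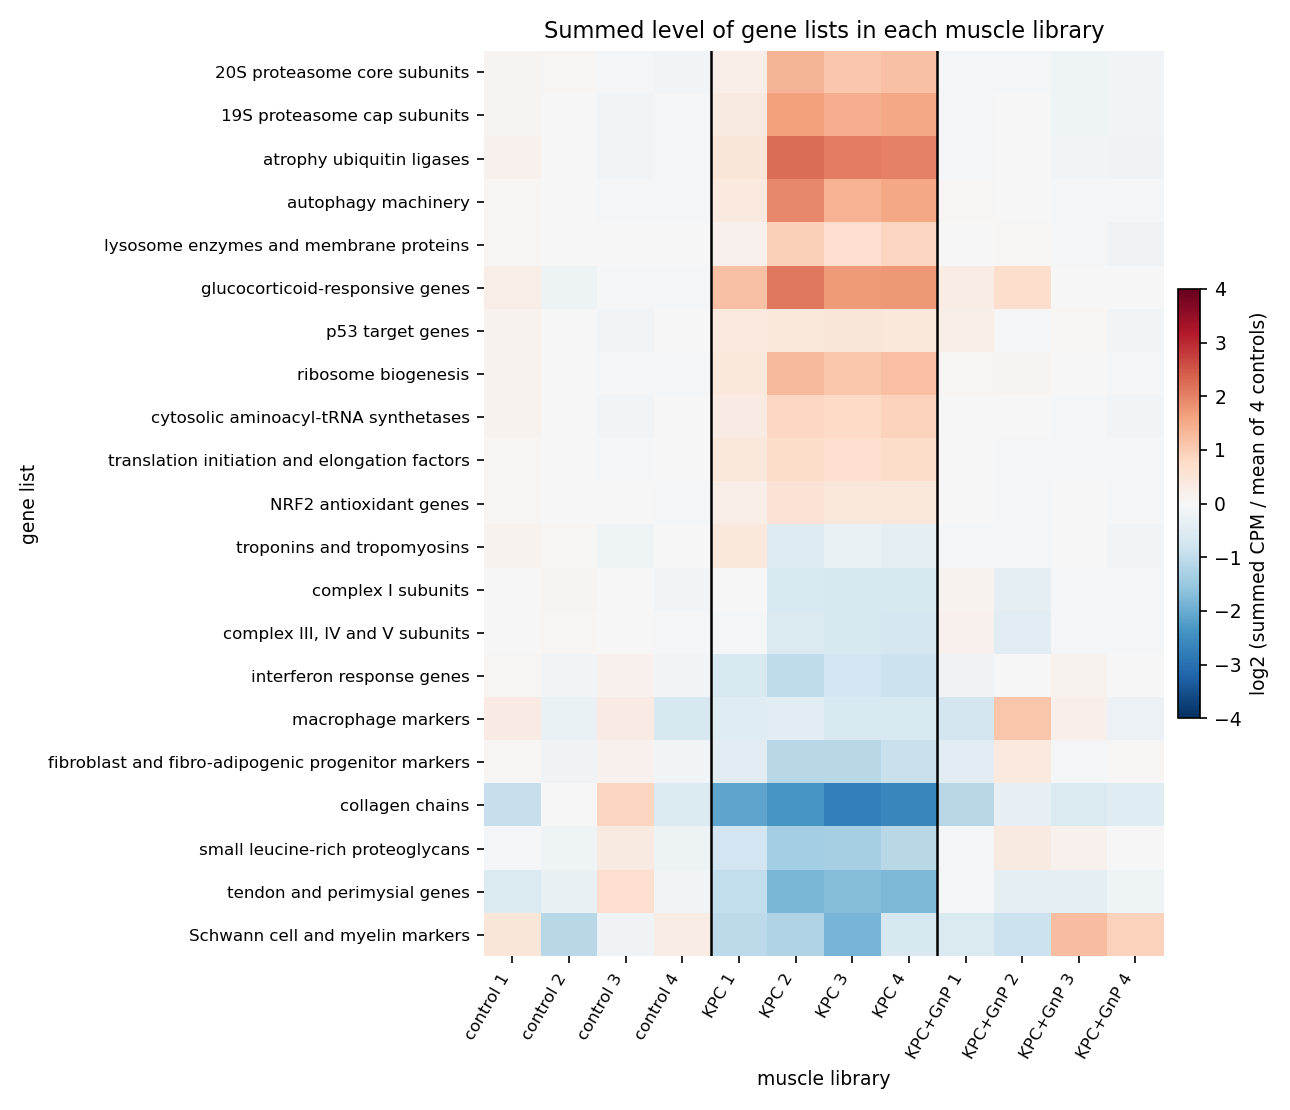
Summed CPM of gene lists (vertical axis) in each of the 12 muscle libraries (horizontal axis), as log2 of the ratio to the mean of the 4 controls; a sum is led by the most abundant members of its list. KPC 2 to 4 are high for the proteasome lists and low for the collagens, and KPC 1 lies nearer to the controls.

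Lists tied to the drugs themselves held both rising and falling genes. Of all genes tested, 23.1% were called higher and 26.7% lower. Of 23 genes for the transport, activation and targets of gemcitabine 7 rose and 4 fell (8 and 1 by totals). Dck, the kinase that activates the drug, was at 2.02, 0.506, 0.983 and 1.16 CPM in KPC and 2.5, 5.59, 4.27 and 2.74 CPM in treated muscle (log2 fold change 1.70 with SE 0.36, edgeR adjusted p = 0.00262). Rrm1, a subunit of ribonucleotide reductase, which the drug inhibits, rose by 0.74 (SE 0.17), and Rrm2b, its p53-induced partner, was at −0.31 (SE 0.14, edgeR adjusted p = 0.0866). Of 30 targets of p53, which DNA damage activates, 17 fell and 3 rose (11 and 5 by totals; median −0.41). Cdkn1a, the cell cycle inhibitor p21, was at 18.1, 257, 74.2 and 97.4 CPM in KPC and 9.50, 15.6, 14.7 and 13.0 CPM in treated muscle, with the most in KPC 2, and without KPC 2 the log2 fold change of −3.08 (SE 0.59) was −2.26. Ptp4a3, a phosphatase, fell from 1202 ± 94.8 to 480.4 ± 85.2 CPM (log2 fold change −1.32 with SE 0.13, edgeR adjusted p = 0.000318), Phlda3, an inhibitor of AKT, fell by 0.92 (SE 0.14), and Mdm2, the ligase that degrades p53, by 0.40 (SE 0.12) with overlapping groups. Ccng1, cyclin G1, another target, rose by 0.83 (SE 0.23).

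Of 22 proliferation genes 8 rose and 2 fell (12 and 1 by totals). Ccnd1, cyclin D1, was at 1.97, 0.429, 0.696 and 0.785 CPM in KPC and 7.36, 10.9, 6.88 and 7.33 CPM in treated muscle (log2 fold change 3.07 with SE 0.43, edgeR adjusted p = 0.000456), against 3.97 to 12.3 CPM in controls. Ccnd2 rose by 1.37 (SE 0.20), and Mki67, the proliferation marker Ki-67, was at 0.483, 0.701, 0.123 and 0.248 CPM in KPC and 0.204, 7.13, 1.07 and 0.720 CPM in treated muscle, with overlapping groups. The log2 fold change of Mki67, 2.55 (SE 0.93), was 0.77 without KPC+GnP 2 (edgeR adjusted p = 0.383), and its call was also lost without KPC 3 or 4. Of 29 DNA repair genes 5 rose and 8 fell (12 and 4 by totals). Chek2, a checkpoint kinase, rose by 2.27 (SE 0.38), and Xrcc1, a repair scaffold, fell by 0.81 (SE 0.13). Of 47 tubulin, kinesin and microtubule genes 15 rose and 12 fell (24 and 7 by totals). Tuba1a and Tubb2a, a pair of tubulin genes, rose by 1.55 (SE 0.29) and 0.96 (SE 0.27), Tubb4b fell by 1.17 (SE 0.20), and Tuba4a was at 0.15 (SE 0.18, edgeR adjusted p = 0.496). Outside the lists, Arrdc3, an arrestin-domain gene, fell by 3.47 (SE 0.53), Impdh2, an enzyme of guanine nucleotide synthesis, by 1.21 (SE 0.12), Frzb, a secreted Wnt inhibitor, rose by 2.95 (SE 0.51), and Meox2, a homeobox factor of muscle precursors, by 1.03 (SE 0.12).

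Treated muscle was also set beside control muscle, with the same treated libraries in both comparisons and the KPC and control libraries each shared between 2 of the 3 comparisons. By edgeR, KPC differed from control in 49.7% of genes and KPC+GnP from control in 0 of 12760, with 413 genes at an unadjusted p under 0.05. DESeq2 called 1 gene, Csf2rb, a cytokine receptor subunit named after its value was seen (log2 fold change 1.29, SE 0.26 by edgeR), and limma 0, with 494 and 426 genes at an unadjusted p under 0.05. List medians for KPC vs control, KPC+GnP vs KPC and KPC+GnP vs control were 1.2, −1.28 and −0.087 for the proteasome cap, 0.81, −0.79 and 0.00092 for ribosome biogenesis, 1.88, −1.53 and 0.27 for glucocorticoid genes, −2.33, 2.06 and −0.34 for collagens and −1.01, 1.17 and 0.092 for interferon genes. For single genes, KPC+GnP vs control stood at 1.24 (SE 0.36) for Foxo1, −1.96 (SE 0.75) for Postn, 0.54 (SE 0.53) for Ddit4, 0.63 (SE 0.91) for Nmrk2 and 2.17 (SE 1.05) for the metallothionein gene Mt2, of which KPC+GnP 2 held the most (1.64, 24, 1.81 and 1.62 CPM in the treated libraries), each at an edgeR adjusted p of 1.00.

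The change with treatment was compared between muscle and heart in one fit of all 24 libraries over 14509 genes, 8 of the 12 hearts coming from animals whose muscle was also measured. It differed between the tissues for 3725 genes (25.7%), the muscle change lying above the heart change for 12.5% and below it for 13.2% of genes. Nearly the whole proteasome was in the latter group, 13 of 14 core and 18 of 18 cap subunits, with list medians of −1.13 and −1.24 in muscle and −0.16 and −0.18 in heart. The muscle change lay above the heart change for 15 of 30 collagens, 24 of 41 interferon genes and 16 of 24 macrophage markers, whose medians were 1.07 in muscle and −0.99 in heart. Of 17 adipocyte markers 7 had a muscle change below the heart change, with a heart median of 2.73. That count was 13 without KPC heart 2, 12 without KPC+GnP heart 4 and 4 without KPC muscle 3. Libraries are numbered within each tissue, so the same number need not be the same animal. KPC heart 2 and KPC muscle 3 came from the same animal, and KPC heart 4 and KPC muscle 1 from another. Col3a1 differed by 3.79 (SE 0.99, edgeR adjusted p = 0.00948), with 3.68 in muscle and −0.10 in heart. Spp1, osteopontin, differed by 6.41 (SE 1.62, edgeR adjusted p = 0.00786); its heart levels were 7.77, 275, 26.3 and 1.2 CPM in KPC and 2.16, 0.252, 10.2 and 0.761 CPM in treated mice, and KPC heart 2 held most of it. That heart also held the most of the leukocyte genes Itgam (25.1, 275, 34.1 and 8.31 CPM in KPC and 11.9, 7.91, 18.4 and 7.4 CPM in treated hearts) and Ccr2 (24.7, 91.3, 13.8 and 6.03 and 8.17, 3.28, 7.89 and 2.77 CPM), and without it the difference was called for 12 of 24 macrophage markers, stood at 3.69 for Spp1 (edgeR adjusted p = 0.0419) and was not called for Itgam (1.83, edgeR adjusted p = 0.0577). Leaving out KPC+GnP muscle 2 also gave 12 macrophage markers. By the fit of 24 libraries the muscle changes of Spp1, Ccr2 and Itgam did not pass (edgeR adjusted p = 0.194, 0.0913 and 0.363). Their heart changes did (edgeR adjusted p = 0.027, 0.0245 and 0.0245). Sln differed by −7.25 (SE 2.29, edgeR adjusted p = 0.025) and Cidec, a lipid droplet gene, by −5.62 (SE 1.64, edgeR adjusted p = 0.0169). In this fit of 24 libraries neither gene's own change passed in muscle (edgeR adjusted p = 0.195 and 0.108) or heart (0.0959 and 0.102). Cidec was at 1.51, 33.5, 0.0612 and 0.104 CPM in KPC and 140, 67.0, 133 and 2.01 CPM in treated hearts, high in KPC heart 2 and low in KPC+GnP heart 4. The part of fat tissue in the difference of Cidec was not tested. Sln was at 52.4, 0, 0.306 and 0 CPM in KPC and 509.96, 171, 85.1 and 331 CPM in treated hearts. Myl4, a myosin light chain of the atria, was high in the same hearts, at 134, 1.28, 1.84 and 1.30 and 2753, 1059, 215 and 1835 CPM, and the part of atrial tissue in the difference of Sln was not tested. Without the muscle library KPC 1, 5694 genes differed.

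All these changes are relative to the bulk of genes, because scaling by library totals moved the median of all genes from 0.02 to 0.27 and gave 4898 higher and 1780 lower calls in place of 2945 and 3412. The sources used here do not say how animals were assigned, or whether libraries of a group shared a day or cage. The p-values set the difference between groups against the spread within them. An effect of a day or cage shared by a group could not be told apart from that of treatment.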

How the data were processed

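RNA was read from skeletal muscle and heart as paired 2 × 100 base reads on a NovaSeq instrument from libraries made with a KAPA mRNA kit, per the labels' protocols. The authors deposited raw counts per gene, which were tested, and log2 FPKM values, which were used for 1 alternative and for the myosin shares. The submitters' processing notes name the build mm10 and, with no role or order, edgeR 3.12.1, STAR 2.5, FastQC 0.11.5 and Subread 1.5.1 with featureCounts. Annotation, settings and strandedness were not given there.

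The 12 muscle libraries, in 3 groups of 4, were fitted together with edgeR 4.0.16 in R 4.3.3 (quasi-likelihood test, trimmed mean of M values, filterByExpr with a minimum count of 10 and a total of 15, Benjamini-Hochberg adjustment over 12760 genes, threshold 0.05), and the 24 libraries of both tissues with an interaction term. Log2 CPM for principal components used a prior count of 2. Muscle libraries held 18285396 to 27382432 counts. No pair of replicates agreed within sampling noise (chi-square per gene at least 14.1). Alternatives were DESeq2 1.42.0, limma 3.58.1, other scalings and filters, and leaving out libraries. The columns were matched to the labels by animal number, with 0 left over.

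Named genes were the 12 largest log2 fold changes and the 10 smallest p values in each direction among called genes whose groups did not overlap and whose higher group averaged at least 5 CPM, the 4 smallest p of each list, and a fixed set of pathway genes; the text gives a part of them. For the difference between tissues they were 6 in each direction. The 75 lists (1976 genes, 1828 tested), the rule and the members were chosen with earlier results of these data known. Promoter sequences are RefSeq's, and the stretches shown were set at 100 bases after the matches were seen. Gdf15 and mitochondrially encoded genes are not analysed here. Some other results are not reported here.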

Additional observations from a re-analysis of the deposited data

Results flagged for a closer look

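Among the genes named above, the 4 KPC libraries and the 4 treated libraries were each checked for a library that stood apart from the other 3 by more than chance gives in about 1 of 20 groups (Dixon's ratio). Of 396 such groups 41 held one, and the library was KPC 1 in 24. KPC 1 stood above the other KPC libraries with 136 CPM of Calm2, 2.06 CPM of Chad, 235 CPM of Cycs, 62.1 CPM of Dbp, 284 CPM of Deptor and 175 CPM of Dlat. It was also high with 1.80 CPM of Foxo6, 2.98 CPM of Frzb, 379.9 CPM of Igfbp5, 16.4 CPM of Kcng4, 1.4 CPM of Kera and 11.4 CPM of Lrp4. The same held for 335 CPM of Ndufs1, 31.6 CPM of Nmrk2, 28.7 CPM of Psme1, 84.1 CPM of Tfrc and 1.67 CPM of Tnmd. KPC 1 stood below them with 132 CPM of Akt1s1, 45.6 CPM of Ddit4, 1388 CPM of Fbxo32, 261 CPM of Il6st, 795 CPM of Sqstm1 and 51.2 CPM of Stat3. It was also low with 903 CPM of Ugp2. Of these 24 levels 21 lay between the mean of the treated libraries and KPC 2 to 4, and what sets KPC 1 apart was not tested.

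In the treated group, KPC+GnP 2 stood apart most often. It was high with 10.9 CPM of Ccnd1, 1.84 CPM of Doc2b, 7.13 CPM of Mki67, 23.1 CPM of Mt1, 24 CPM of Mt2 and 6.28 CPM of Myog. It was high with 277 CPM of Trim63. It was low with 3.59 CPM of Psmb10 and 110.3 CPM of Sod1. KPC+GnP 1 was high with 39.4 CPM of Klf15. KPC+GnP 1 was low with 28.9 CPM of Fbn1 and 15.7 CPM of Nfkbib. KPC+GnP 3 was low with 101 CPM of Phlda3. KPC+GnP 4 was low with 182 CPM of Deptor, 139 CPM of Dmd and 109.6 CPM of Npm1. KPC 2 was high with 95.4 CPM of Pecam1.

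The change with treatment differed between muscle and heart in 3725 genes. By the difference itself (muscle minus heart, log2), Spp1 stood at 6.41, Col3a1 at 3.79, Ccr2 at 4.0 and Itgam at 3.76, and Cidec at −5.62, Myl4 at −6.11 and Sln at −7.25. For Spp1, Ccr2 and Itgam KPC heart 2 stood above the other 3, and without it the differences were 3.69, 2.81 and 1.83. The call of Myl4 was lost without any one treated muscle library, KPC muscle 3, KPC heart 3 or KPC+GnP heart 1 (edgeR adjusted p up to 0.0605).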

How the results depend on the processing

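The number of genes called by edgeR, 6357, was 5034 with the 8 libraries of the 2 groups alone, 5450 with the stricter filter, 6383 without a filter, 6319 with relative log expression factors, 6678 with library totals, 6757 by DESeq2, 6324 by limma on the deposited log2 FPKM and 7398 without KPC 1 and 2. Leaving out 1 library gave 5169 to 8056 genes, 2205 to 3998 of them higher and 2897 to 4058 lower, the highest total without KPC 1. Scaling by library totals turned 2945 higher and 3412 lower calls into 4898 and 1780, and calls of at least 2-fold from 1467 and 915 into 2295 and 534. Leaving out 1 library gave 1195 to 2093 and 662 to 1296 such calls. Of the higher and lower counts of the 75 lists, 78 moved by over 1.5 times with library totals and 72 did not; list medians shifted upwards with it. Of 198 genes named, 178 were called, and 155 of these kept the call in every alternative; 0 of the 178 changed sign. The sign turned for uncalled genes near 0. With library totals Chrna1 was at 0.12, Myh1 at 0.078, Myog at 0.021, Osmr at 0.033, Pecam1 at 0.16 and Socs3 at 0.044. Without 1 library Myh1 ranged over −0.34 to 0.062, Myog −0.47 to 0.26, Pecam1 −0.19 to 0.15 and S100a8 −0.32 to 0.58. Without KPC 1 and 2 together Myog was at 0.21, Pecam1 at 0.085 and S100a8 at −0.36, and S100a8 was at −0.026 by limma. Pecam1 was at 0.0015 with the stricter filter. The number of genes whose change differed between tissues, 3725, was 3958 with library totals and 2867 to 5694 without 1 library, the highest without KPC muscle 1. No paired analysis was possible because the treated and vehicle muscle came from different animals. With the animal as a block across tissues 3205 genes differed, and 3131 in the same limma fit without the block, which was added after the data were seen. The motif core of interferon genes was in 57.6% of windows and in 45.5% when only the bases before the start were read. Depth limits the genes below about 1 CPM, and the cause of the shifts with scaling was not tested.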
